A study of Mus musculus with 59 samples.

Results

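Axon guidance ligands and receptors are the proteins that steer growing axons. Their transcripts were followed here in spinal cord of mice used to model amyotrophic lateral sclerosis and in co-cultures of glia and neurons. Members were chosen by gene symbol alone: ephrins (Efna, Efnb) and their Eph receptors (Epha, Ephb), semaphorins (Sema), plexins (Plxn), the neuropilins Nrp1 and Nrp2, Slit1 to Slit3, Robo1 to Robo3, the netrins Ntn1 and Ntn4, and the netrin receptors Dcc and Unc5a to Unc5d. The rule found 66 genes, 33 of them ligands and 33 receptors. They held 66 of 36814 rows in spinal cord and 65 of 27389 rows in cultures, where Robo3 was not analysed. By family there were 8 ephrins, 14 Eph receptors, 20 semaphorins, 9 plexins, 2 neuropilins, 3 Slits, 3 Robos, 2 netrins and 5 netrin receptors.

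Spinal cord came from wild-type mice and from mice labelled SOD1_G93A mutant, which carry a mutant human superoxide dismutase transgene, in 16 libraries: a female and a male per genotype, aged 4, 8, 12 or 17 weeks. Sandwich co-cultures paired wild-type or mutant glia with wild-type or mutant neurons for 3, 7 or 14 days, and the RNA of 1 of the partners was read, in 23 libraries from glia and 20 from neurons. Each pairing and day had 2 libraries except glia of wild type beside mutant neurons on day 3, neurons of the all-wild-type pairing on day 3, and mutant neurons beside wild-type glia on every day, which had 1. The promoter of the transgene, how the cultured cells were obtained, and whether replicates are separate cultures are not stated in the labels, so the p-values rest on the spread between libraries, which may be technical.

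In development a ligand on one cell or in the matrix binds a receptor on the growth cone and attracts or repels the axon. Semaphorins signal through plexins, the secreted ones mostly with a neuropilin as partner, ephrins signal through Eph receptors, Slits through Robo receptors, and netrins through Dcc (attraction) and Unc5 receptors (repulsion). In the adult spinal cord many of these proteins are kept by neurons, oligodendrocytes, astrocytes, microglia and blood vessels, where they take part in synapse upkeep, myelin, immune signalling and vessel growth.

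Levels in cultures are RPKM (reads per kilobase of gene, scaled to the library's total). The spinal cord table names no unit, and its values are reads per length and library total on the scale of RPKM, after a number of reads was subtracted for some genes; no member's row was below 0. Both were rescaled here so that the typical gene was equal between libraries, and they can be compared between genes but not between the 2 tables, which were scaled separately. A library held 9.71 to 49.1 M reads on genes in spinal cord, 3.13 to 22.0 M in glia and 6.37 to 29.3 M in neurons. In the 7 culture libraries numbered replicate 1 on day 3 the rescaling factor was 1.46 to 2.23, against 0.812 to 0.980 in the 36 others. In spinal cord it was 0.652 in the 17-week mutant female, the library with the fewest reads there, and 0.727 in the 17-week wild-type female. The other spinal cord libraries had factors of 0.941 to 1.12. A log2 difference is that of log2(level + 1), which understates the change of low genes, and a call means an adjusted p under 0.05 in limma (Benjamini-Hochberg, over all genes tested). Members at 1 or more in at least 2 libraries were tested, which left out Efna4, Epha1, Epha2, Epha3, Epha8, Ephb3, Ephb4, Robo3 and Sema3g in spinal cord (57 of 66 tested).

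The largest changes among members in mutant spinal cord were rises of the semaphorin receptors Plxnb2, Plxnd1 and Nrp1. The bases just before the start of these 3 genes are shown because the genes rose together. They are from RefSeq (build GRCm38.p6), which listed promoters for 56 of the 66 members, and capitals mark the GC box letters GGGCGG on either strand. Of 2 starts listed for Plxnb2 the upstream one is printed. The 150 bases lie at chr15:89180789-89180938 (minus strand), chr6:115995006-115995155 (minus strand) and chr8:128358923-128359072 (plus strand).
Plxnb2: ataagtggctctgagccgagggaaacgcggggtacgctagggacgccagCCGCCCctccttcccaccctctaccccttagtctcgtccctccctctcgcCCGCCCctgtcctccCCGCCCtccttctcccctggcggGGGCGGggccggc
Plxnd1: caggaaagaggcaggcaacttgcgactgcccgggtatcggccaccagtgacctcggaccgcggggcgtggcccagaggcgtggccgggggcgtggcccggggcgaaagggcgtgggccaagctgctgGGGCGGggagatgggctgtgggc
Nrp1: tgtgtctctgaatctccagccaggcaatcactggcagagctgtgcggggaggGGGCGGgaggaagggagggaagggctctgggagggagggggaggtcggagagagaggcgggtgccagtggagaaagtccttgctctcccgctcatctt
In the 250 bases before the start, GGGCGG had 4 matches for Plxnb2 and 1 each for Plxnd1 and Nrp1. It was present in 32.7% of all 32851 promoters of that length and in 72.2% of the 72 promoters of members. The letters TATAAA were found in 12.4% of all promoters and in 2.78% of those of members, and GAGGAAGT, a binding sequence of the myeloid factor Spi1, in 2.44% of all and in 0 of the 72. Neither of these was found before the 3 genes. The letters are a description of the sequence, and GC content differed as well, with a median of 64.4% in promoters of members against 52.4% in all.

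In spinal cord the ligand with the highest level was Efnb3, a membrane-bound ephrin of the cord midline, at 51.5 to 68.0 in the 16 libraries. Sema7a, which is anchored in the membrane by a lipid, followed with 19.3 to 29.3, and Sema4d, a semaphorin of oligodendrocytes, with 14.2 to 35.9. The ranges of Sema7a and Sema4d overlapped, and Efnb3 stood above both in every library. Among receptors Plxnb1, the receptor of Sema4d, stood at 10.4 to 17.3, Ephb1 at 8.44 to 14.7 and the netrin receptor Unc5b at 7.38 to 14.9. Netrin and Slit signals were lower, with Slit2 at 3.75 to 6.98, Slit1 at 3.73 to 6.29, Slit3 at 1.20 to 1.78 and Ntn1 at 2.23 to 3.16. Their receptors Robo1 and Robo2 stood at 5.61 to 7.72 and 3.86 to 4.91, Unc5c at 2.08 to 3.37 and Dcc, the attractive netrin receptor, at 0.545 to 1.24.

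Before 12 weeks no member was called between mutant and wild-type cord. In the mean of 4 and 8 weeks 0 of 57 members were called, as were 0% of all genes (0 of 14652, limma). At an unadjusted p under 0.05 there were 6 members and 1194 genes, and 0 members were called with values as deposited or with voom on recovered reads. Log2 differences of members, mutant minus wild type, ran from -0.23 (Sema3d) to 0.24 (Sema4b), with a median standard error (SE) of 0.084. The ages were also tested singly, a choice made after seeing the data, since opposite differences cancel in a mean. At 4 weeks 0 of 57 members and 0 genes were called (1 and 700 at an unadjusted p under 0.05, limma), and at 8 weeks 0 members and 13 genes (7 and 2221). At 4 weeks both mutants lay above both wild types for 20 of the 57 members, against 18.6% of all genes. They lay below for 5 of the 57, against 18%. At 8 weeks they lay above for 25 of the 57, against 28.4%, and below for 11, against 29.4%.

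At 12 weeks 3 of 57 members (5.26%) were higher in mutants, against 2.84% of all genes, and 1 (1.75%) was lower, against 0.287%. Plxnb2, a receptor for semaphorins of the Sema4 group, was at 5.34 and 6.14 in the wild-type female and male and at 9.91 and 10.7 in the mutants. The mutants thus lay above the wild types, and Plxnb2 rose 1.80-fold in mean level (log2(level + 1) difference 0.75, SE 0.091, adjusted p = 0.00161, limma). Plxnd1, the receptor of Sema3e, was at 0.639 and 0.548 in wild types and at 1.25 and 1.43 in mutants (log2 0.55, SE 0.12, adjusted p = 0.038). Sema4b, a membrane-bound semaphorin, was at 1.79 and 1.75 against 2.75 and 3.25 (log2 0.53, SE 0.11, adjusted p = 0.0313). Unc5b, a repulsive netrin receptor also known from blood vessels, was at 13.9 and 12.0 in wild types and at 7.80 and 8.10 in mutants, a log2 difference of -0.63 (SE 0.11, adjusted p = 0.0138).
Plxnb2 was called at 12 weeks under every setting tried. The calls of Plxnd1, Sema4b and Unc5b were lost with values as deposited (adjusted p = 0.101, 0.221 and 0.0848, limma). Those of Plxnd1 and Sema4b were also lost with quantile normalization (0.0546 and 0.0512), with no minimum (0.0512 and 0.069) and without any 1 of the 4 libraries of that age. That of Unc5b was lost without any 1 of them but the mutant male. Plxnd1 was under 1 in every wild-type library, so it reached the minimum through mutant libraries alone, and its place among the 3 higher members is a description.

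At 17 weeks 6 of 57 members (10.5%) were higher in mutants, against 9.13% of all genes, and 3 (5.26%) were lower, against 3.04%. The median log2 difference of the members was -0.05 and that of all genes -0.02. The 6 that rose were the receptors Plxnd1, Plxnb2, Nrp1 and Plxnb1 and the ligands Sema3d and Sema4c, and semaphorins, plexins and neuropilins made up 30 of the 57 members tested. Quantile normalization gave 5 higher and 5 lower, and values as deposited 3 higher and 0 lower.

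Plxnd1 was at 0.836 and 0.587 in the wild-type female and male and at 3.08 and 2.76 in the mutants, a 4.11-fold rise in mean level (log2(level + 1) difference 1.20, SE 0.12, adjusted p = 0.000101, limma). Its wild-type level was under 1 at every age, so it reached the minimum for testing through mutant libraries alone. At 17 weeks, unlike 12 weeks, it was also called with no minimum. The difference was larger on scales without the added 1 (log2 1.91 with 0.1 added, 2.07 with voom on recovered reads). Plxnb2 was at 6.88 and 5.98 against 15.2 and 14.6 (log2 1.10, SE 0.091, adjusted p = 2.63e-05). Nrp1, the receptor of Sema3a and of vascular endothelial growth factor, was at 3.92 and 4.00 against 8.78 and 8.47, a 2.18-fold rise in mean level (log2(level + 1) difference 0.96, SE 0.080, adjusted p = 2.64e-05). In the mm9 positions deposited with the values, Plxnd1 lies on the minus strand at chr6:115904829-115945024, Plxnb2 on the minus strand at chr15:88985979-89011219 and Nrp1 on the plus strand at chr8:130882973-131029363. In these 3 receptors both 17-week mutants lay above all 8 wild-type libraries, which reached 0.836 for Plxnd1, 6.88 for Plxnb2 and 5.68 for Nrp1. All 3 were called at 17 weeks under every setting tried.

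Sema3d, a secreted semaphorin, was at 2.04 and 2.58 in wild types and at 4.50 and 4.29 in mutants (log2 0.71, SE 0.15, adjusted p = 0.0105). Plxnb1 was at 12.1 and 11.0 against 15.1 and 17.3 (log2 0.45, SE 0.11, adjusted p = 0.0235). Sema4c, a ligand of Plxnb2, was at 2.47 and 1.82 against 3.25 and 3.34 (log2 0.46, SE 0.13, adjusted p = 0.044). Among the members that fell, Epha10, an Eph receptor without kinase activity, was at 3.65 and 5.22 in wild types and at 2.43 and 2.95 in mutants (log2 -0.55, SE 0.13, adjusted p = 0.0232). Efna3, a lipid-anchored ephrin, was at 10.9 and 8.99 against 6.92 and 6.54 (log2 -0.50, SE 0.13, adjusted p = 0.0258). Unc5b was at 12.3 and 8.82 against 7.46 and 7.38 (log2 -0.44, SE 0.11, adjusted p = 0.03). The groups of 2 did not overlap in these 6 members. Groups of 2 did so for 18% to 29.4% of all genes each way at 4 and 8 weeks. The share over all genes was not counted at 17 weeks. All 6 calls were lost with values as deposited (adjusted p = 0.112 to 0.425, limma), in the 17-week males alone and without either 17-week mutant. Without the wild-type female Unc5b came to a log2 difference of -0.24 (adjusted p = 0.147), and without the wild-type male Sema4c came to 0.28 (adjusted p = 0.24).

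**Figure D1:**
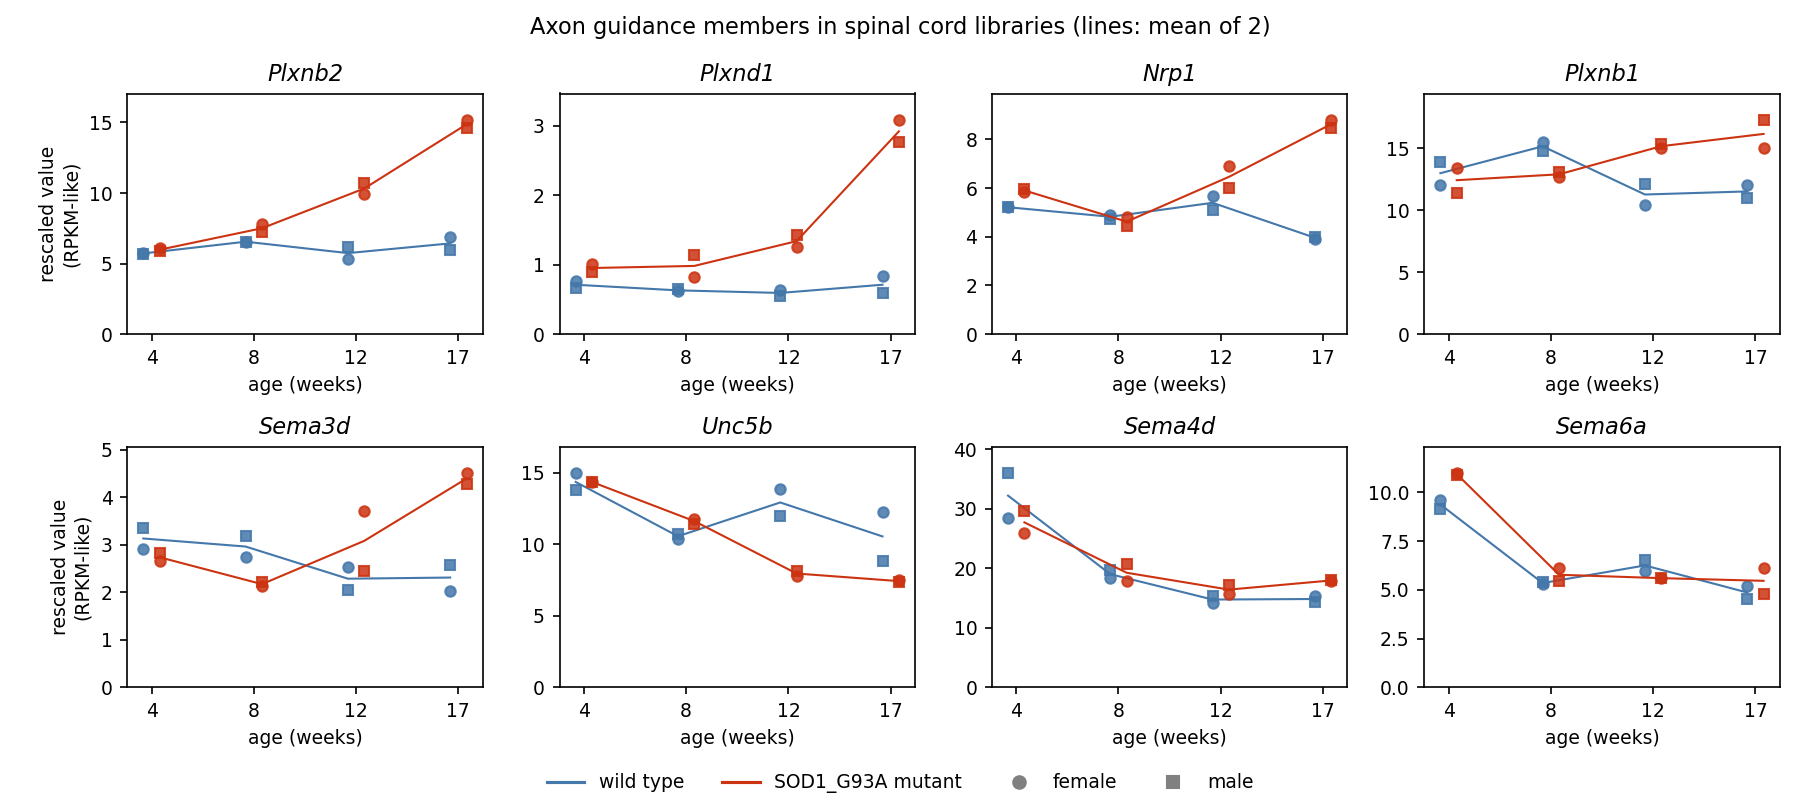
Level (rescaled value on the scale of RPKM) of 8 members against age in weeks (evenly spaced) in spinal cord, with wild types in blue and mutants in red, circles for females, squares for males and lines for the mean of 2. In Plxnb2, Plxnd1 and Nrp1 the mutant lines leave the wild-type lines by 17 weeks, while Sema4d and Sema6a fall with age in both genotypes.

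Other named members of the same systems were not called at 17 weeks, which with groups of 2 does not show that they equalled wild type. Their log2 differences ran from -0.21 (Epha4) to 0.33 (Nrp2), beside a median SE of 0.12 over the members tested. Sema3a, the secreted repellent that binds Nrp1, had a log2 difference of 0.05, Nrp2 of 0.33, and the plexins Plxna2 and Plxna4 of -0.07 and -0.05. Sema4d stood at 0.26, Sema5a at -0.07, Sema6a at 0.13, Sema7a at -0.19 and its receptor Plxnc1 at 0.06. Slit1, Slit2 and Slit3 had -0.05, -0.13 and -0.04, and Robo1 and Robo2 0.07 and 0.01. Ntn1 had 0.25, Dcc -0.09 and Unc5c -0.05. Of the Eph system, Epha4 (a receptor of motor axons) had -0.21, Epha5 -0.15, Ephb2 0.11, Efna5 0.06 and Efnb3 -0.09.

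**Figure D2:**
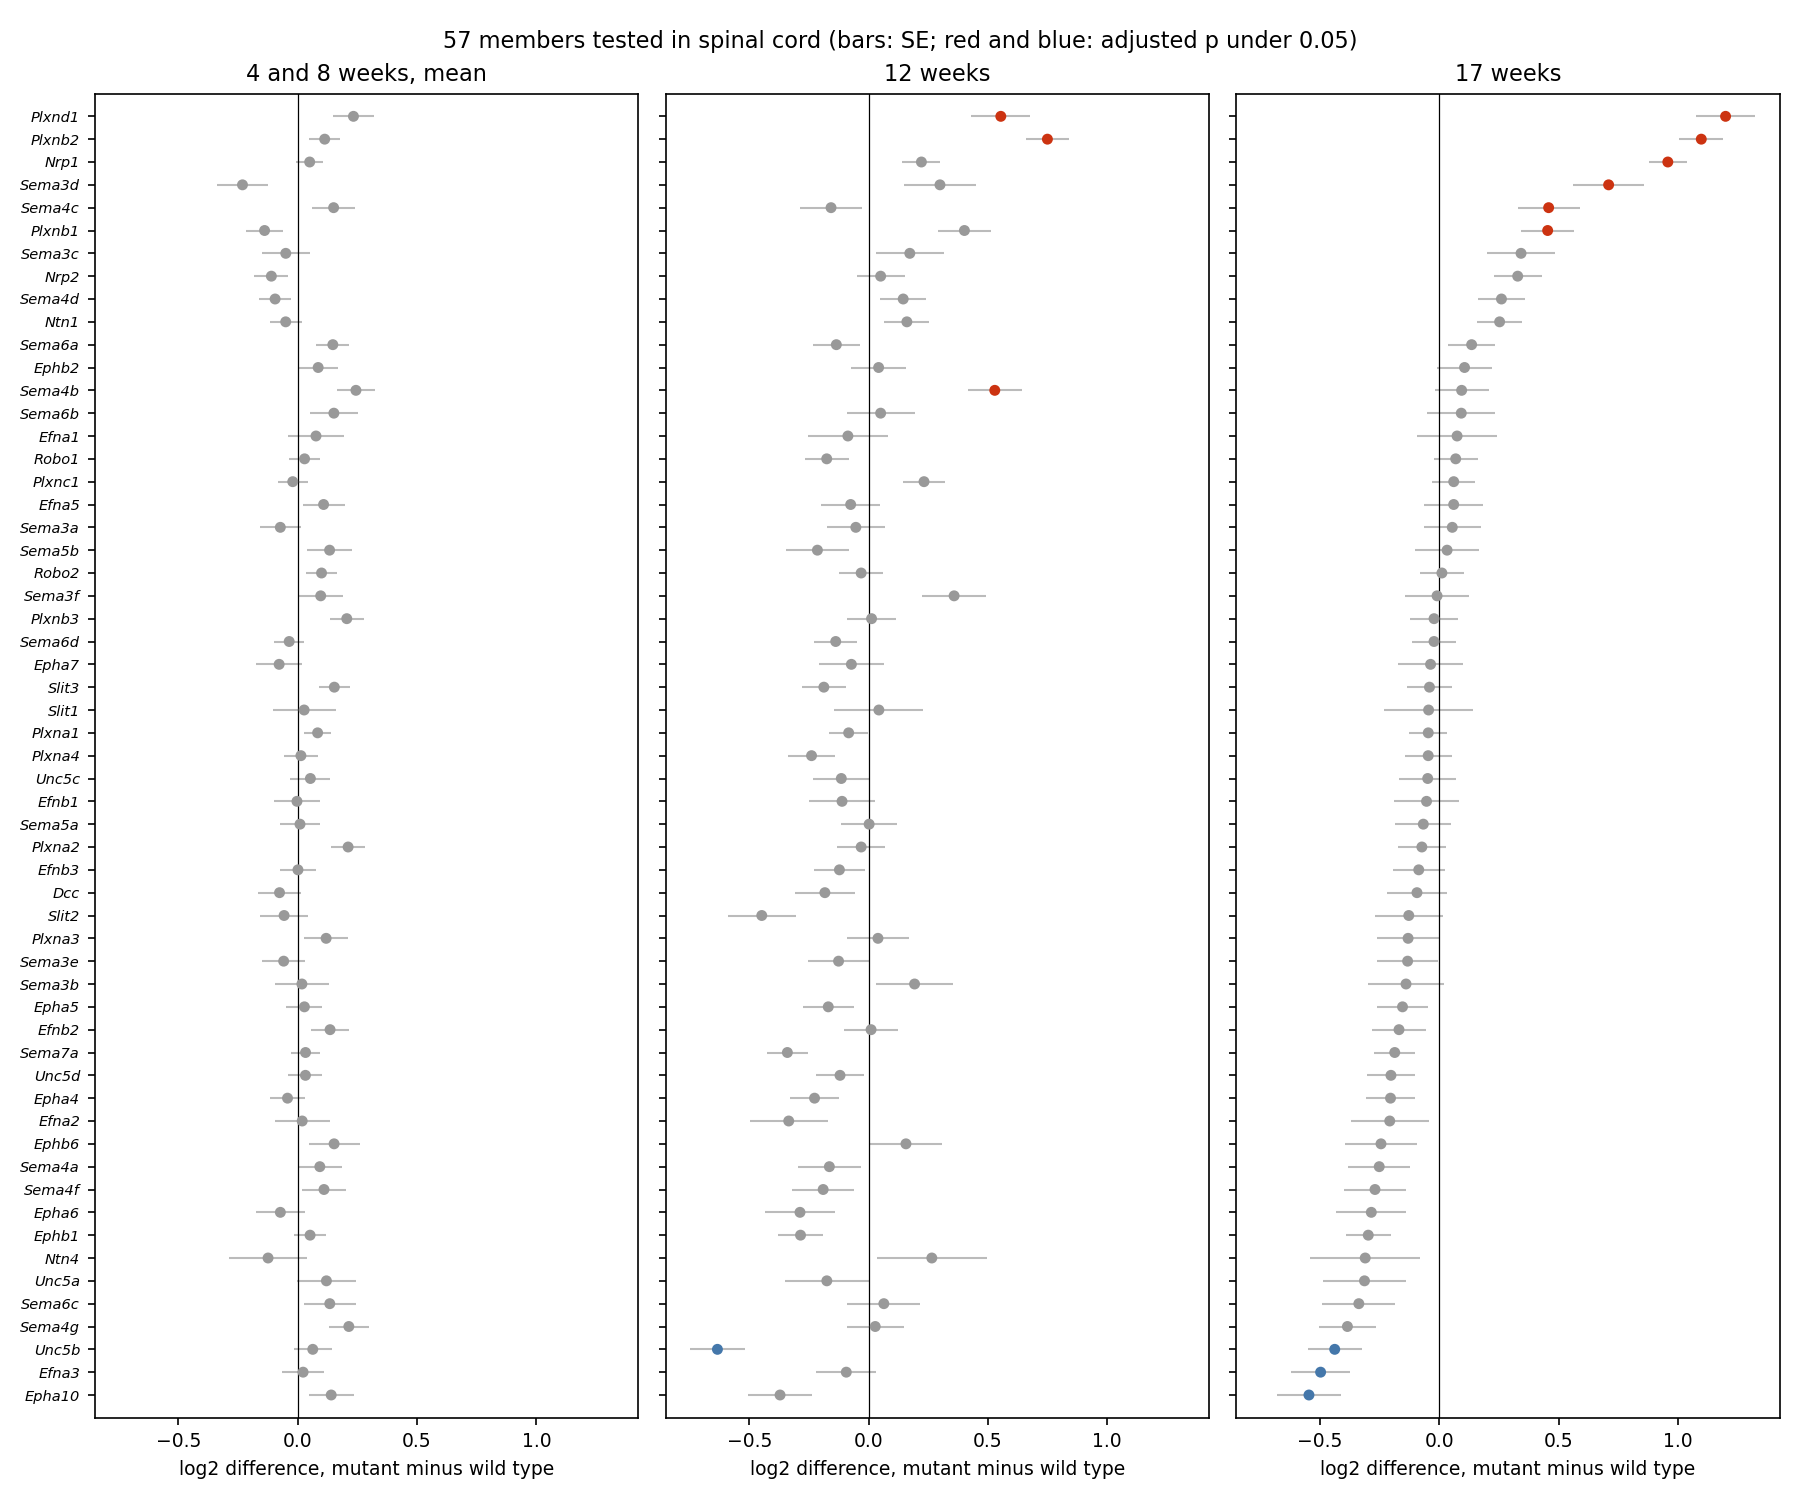
Log2 difference, mutant minus wild type, of the 57 members tested in spinal cord at the mean of 4 and 8 weeks, at 12 weeks and at 17 weeks, ordered by the value at 17 weeks, with bars for the SE and red or blue points for calls. No point is coloured at 4 and 8 weeks, 4 are at 12 weeks and 9 are at 17 weeks.

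The genotype difference itself was compared between 17 weeks and the mean of 4 and 8 weeks. It was larger at 17 weeks for 5 of 57 members (8.77%), against 6.55% of all genes, and lower for 2 (3.51%), against 1.32%. Quantile normalization gave 5 and 4, and values as deposited 2 and 0. For Plxnb2 the log2 differences differed by 0.98 (SE 0.11, adjusted p = 0.000385, limma), for Plxnd1 by 0.97 (SE 0.15, adjusted p = 0.0028), Sema3d by 0.94 (SE 0.18, adjusted p = 0.00979), Nrp1 by 0.91 (SE 0.098, adjusted p = 0.000288) and Plxnb1 by 0.59 (SE 0.14, adjusted p = 0.0242). Plxnd1 reached the minimum for testing through mutant libraries alone, so its place among the 5 is a description. It was also called with no minimum. Epha10 differed by -0.69 (SE 0.16, adjusted p = 0.0284) and Sema4g, a membrane-bound semaphorin, by -0.60 (SE 0.15, adjusted p = 0.0299). In Sema4g the 4 mutant libraries of 4 and 8 weeks were at 3.88 to 4.68 and those of 17 weeks at 2.94 and 3.55, while wild types were at 3.08 to 3.87 and then at 4.38 and 4.70. With values as deposited Plxnb2 and Plxnd1 were the members still called, Nrp1 having an adjusted p of 0.0594 (limma). The calls of Sema3d, Plxnb1, Epha10 and Sema4g were also lost in the 17-week males alone. Of 20 settings in all, Sema3d lost its call under 3, Plxnb1 under 8, and Epha10 and Sema4g under 11 each.

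Markers of several cell types moved with the genotype at 12 and 17 weeks. All 8 microglial markers were higher at 17 weeks and 7 of 8 at 12 weeks, and their summed level was 100 to 104 in wild types and 708 to 735 in mutants at 17 weeks (100 to 105 and 277 to 324 at 12 weeks). Of 8 astrocyte markers 5 were higher at 17 weeks, with sums of 1340 to 1369 against 2658 to 2839. Of 7 neuronal markers tested 3 were lower (Nefl, Snap25 and Stmn2), with sums of 1334 to 1351 against 920 to 950, and of 6 motor neuron markers tested 3 were lower (Prph, Chodl and Chat). Of 4 oligodendrocyte precursor markers 2 were higher, as was Mki67, the marker of dividing cells that could be tested. Of 7 oligodendrocyte markers Cldn11 alone was called, as higher, while the median log2 difference of the 7 was -0.23. Their sums were lower in mutants, 3692 to 3882 in wild types against 3154 to 3299. No endothelial, fibroblast, Schwann cell or red blood cell marker was called, with endothelial sums of 6.38 to 11.7 against 8.23 to 8.80. No marker of these lists was at 0 throughout a group. The part of these cell types in the changes of members was not tested, and in tissue of mixed cells fewer cells of a type and less RNA per cell cannot be told apart.

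Other genes of the pathway, from lists chosen with earlier results of these data known, were described by their counts. At 17 weeks 9.13% of all genes were higher in mutants and 3.04% lower. Of 19 tested co-receptors and further ligands 5 were higher in mutants at that age (Nrcam, Chl1, Rgma, Ryk and Boc) and 0 lower, with a median log2 difference of 0.00. Of 38 tested cytoplasmic partners, proteins that pass the signal on to the cytoskeleton, 7 were higher and 3 lower, with a median of -0.03. At 12 weeks the counts were 0 and 0 of 19, and 1 higher and 1 lower of 38, against 2.84% and 0.287% of all genes.

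In wild-type cord 1 of 57 members (1.75%) was higher at 17 than at 4 weeks, against 0.573% of all genes. Lower were 3 (5.26%), against 2.31%. Sema4d was at 28.5 and 35.9 at 4 weeks and at 15.3 and 14.4 at 17 weeks, a log2 difference of -1.06 (SE 0.097, adjusted p = 0.000473, limma). Sema6a, a membrane-bound semaphorin of oligodendrocytes that binds Plxna2 and Plxna4, was at 9.61 and 9.15 and then at 5.19 and 4.54 (log2 -0.82, SE 0.098, adjusted p = 0.00168). Sema5a, a membrane-bound semaphorin, was at 12.8 and 13.4 and then at 8.32 and 8.96 (log2 -0.55, SE 0.12, adjusted p = 0.0341). Plxnc1, the receptor of Sema7a, was at 1.69 and 1.37 and then at 2.46 and 2.36 (log2 0.43, SE 0.090, adjusted p = 0.0294). The ages did not overlap in these 4 members. Between genotypes groups of 2 did so for 18% to 29.4% of all genes each way at 4 and 8 weeks. The share over all genes was not counted for the ages. All 7 oligodendrocyte markers were lower at 17 weeks too, with sums of 8093 to 8430 at 4 weeks and of 3692 to 3882 at 17 weeks, and their part in the change of semaphorins was not tested. The calls of Sema5a and Plxnc1 were lost in the males alone (adjusted p = 0.0769 and 0.0996) and without any 1 of the 4 libraries, while those of Sema4d and Sema6a were kept under every setting. With values as deposited the median of all genes shifted by -0.25, and the 4 calls were all lower (Sema5a at -0.82, Plxnc1 not called at 0.23).

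In cultures neuronal and glial libraries were compared over all days. Of 63 members tested (Epha8 and Sema3g were too low) 36 (57.1%) were higher in neuronal libraries, against 39.8% of all genes. Lower were 16 (25.4%), against 38.6%. As deposited, 35 were higher and 15 lower. The median log2 difference, neurons minus glia over all days and pairings, was 0.51 for members and 0.01 for all genes. Unc5a, Unc5d, Dcc, Epha3, Epha6 and Epha10 reached the minimum in neuronal libraries alone and Epha1 in glial ones alone, so these 7 had to differ and their values are a description. Over the rows that reached it in both cells, a choice made after seeing the data, 30 of 56 members were higher, against 37.1% of genes, and 15 were lower, against 39.5%. Over all days 13 of the 63 were higher in all 20 neuronal libraries than in any glial one, against 6% of all genes, and Efna1 was lower in all, against 4.1%. The 13 were the 6 just named, which had to differ, and Ephb1, Slit1, Slit2, Sema3a, Sema4a, Sema4f and Sema6c, so this count is a description. The libraries of the 2 kinds overlapped for the other members.

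Slit1, a secreted repellent read by Robo receptors, had the widest difference among members. It was at 0.241, 0.569 and 1.53 (lowest, median and highest of 23) in glia and at 7.57, 27.4 and 62.2 (of 20) in neurons, a log2 difference of 3.81 (SE 0.074, adjusted p = 5.22e-22, limma). Sema4f, a membrane-bound semaphorin, was at 0.422, 0.733 and 1.29 in glia and at 2.33, 10.4 and 19.8 in neurons (log2 2.47, SE 0.094, adjusted p = 3.8e-17). Unc5d, a repulsive netrin receptor, was at 0.0808, 0.233 and 0.546 against 1.40, 6.54 and 13.6 (log2 2.36, with no test). In these the lowest neuron stood above the highest glial library. Epha3, an ephrin-A receptor of motor axons, was at 0.0621, 0.348 and 0.849 against 1.37, 5.34 and 15.0 (log2 2.27, with no test). Sema6c, a membrane-bound semaphorin, was at 0.818, 1.66 and 2.53 against 2.62, 11.9 and 42.9 (log2 2.25, SE 0.072, adjusted p = 1.38e-18). Ephb1, an ephrin-B receptor, was at 0.831, 1.99 and 4.33 against 5.12, 15.3 and 30.1 (log2 2.23, SE 0.12, adjusted p = 3.69e-14).

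On the glial side Sema3b, a secreted semaphorin that acts through Nrp2, was at 12.0, 20.4 and 32.2 in glia and at 0.393, 3.63 and 19.9 in neurons (log2 -1.98, SE 0.12, adjusted p = 2.79e-13, limma). Efna1, a lipid-anchored ephrin, was at 2.63, 4.05 and 6.40 against 0.268, 1.03 and 1.94 (log2 -1.40, SE 0.098, adjusted p = 5.05e-12). Ntn4, a netrin of basement membranes, was at 23.8, 39.9 and 63.2 against 5.05, 16.8 and 67.2 (log2 -1.23, SE 0.12, adjusted p = 1.28e-09). Of these Efna1 alone did not overlap between the cells. Sema3f, another ligand of Nrp2, was at 6.50, 12.6 and 18.9 against 2.04, 4.32 and 17.2 (log2 -1.11, SE 0.10, adjusted p = 5.9e-10). Plxnd1 was at 6.24, 10.7 and 19.1 against 1.68, 5.71 and 10.3 (log2 -1.03, SE 0.13, adjusted p = 1.94e-07). Plxnb2 had the highest level of all members in glia, at 96.9, 138 and 172 against 28.1, 66.3 and 138 in neurons (log2 -1.02, SE 0.097, adjusted p = 1.05e-09). Over days 7 and 14 alone the differences of Ntn4 (-0.71), Plxnd1 (-0.63) and Plxnb2 (-0.67) were smaller and still called.

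By family, of the netrin receptors Unc5c (log2 1.05) was higher in neurons and Unc5b lower, beside Dcc (2.13), Unc5a and Unc5d, which were under the minimum in glia. Robo1 (0.70) and Robo2 (0.51) were higher, as were Slit1, Slit2 (1.91) and Slit3 (1.83) and Ntn1 (1.53). Among plexins Plxna1, Plxna3, Plxna4 (1.70) and Plxnc1 (0.54) were higher in neurons, and Plxnb1 (-0.87), Plxnb2, Plxnb3 and Plxnd1 were lower, while Plxna2 was not called (-0.01). Nrp2 was higher (0.73) and Nrp1 lower (-0.51), and the Nrp2 row also carries names of its neighbour Pard3b, so reads of both genes may be in it. Of the semaphorins Sema3a (1.67), Sema3c, Sema4a, Sema4c, Sema4f, Sema4g, Sema5a (0.46), Sema6c and Sema6d were higher in neurons, and Sema3b, Sema3d, Sema3e, Sema3f and Sema6a (-0.26) were lower. Sema4d (-0.21) and Sema7a (-0.18) were not called.

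Cell type markers went with the labels. All 6 neuronal and 8 motor neuron markers tested were higher in neuronal libraries, and all 8 astrocyte, 8 microglial, 4 oligodendrocyte precursor and 6 fibroblast markers and 6 of 7 oligodendrocyte markers were lower. The 3 markers tested of dividing cells and of pluripotent cells were higher in neuronal libraries, 2 of 4 endothelial markers were lower, 2 of 3 Schwann cell markers were higher and 1 lower, and red blood cell markers were too low to test.

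In the ephrin system the Eph receptors Epha4, Epha5, Epha7, Ephb1 and Ephb6 were higher in neurons and Ephb4 was lower, beside Epha3, Epha6 and Epha10, under the minimum in glia, and Epha1, under it in neurons. Epha5 differed by 1.06 and Epha4 by 0.19 (adjusted p = 0.0493), and Ephb2 was not called (-0.06). Of 8 ephrins Efna2, Efna3, Efnb2 and Efnb3 (1.62) were higher, Efna1 and Efna4 were lower, and Efna5 was not called (0.17).

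**Figure D3:**
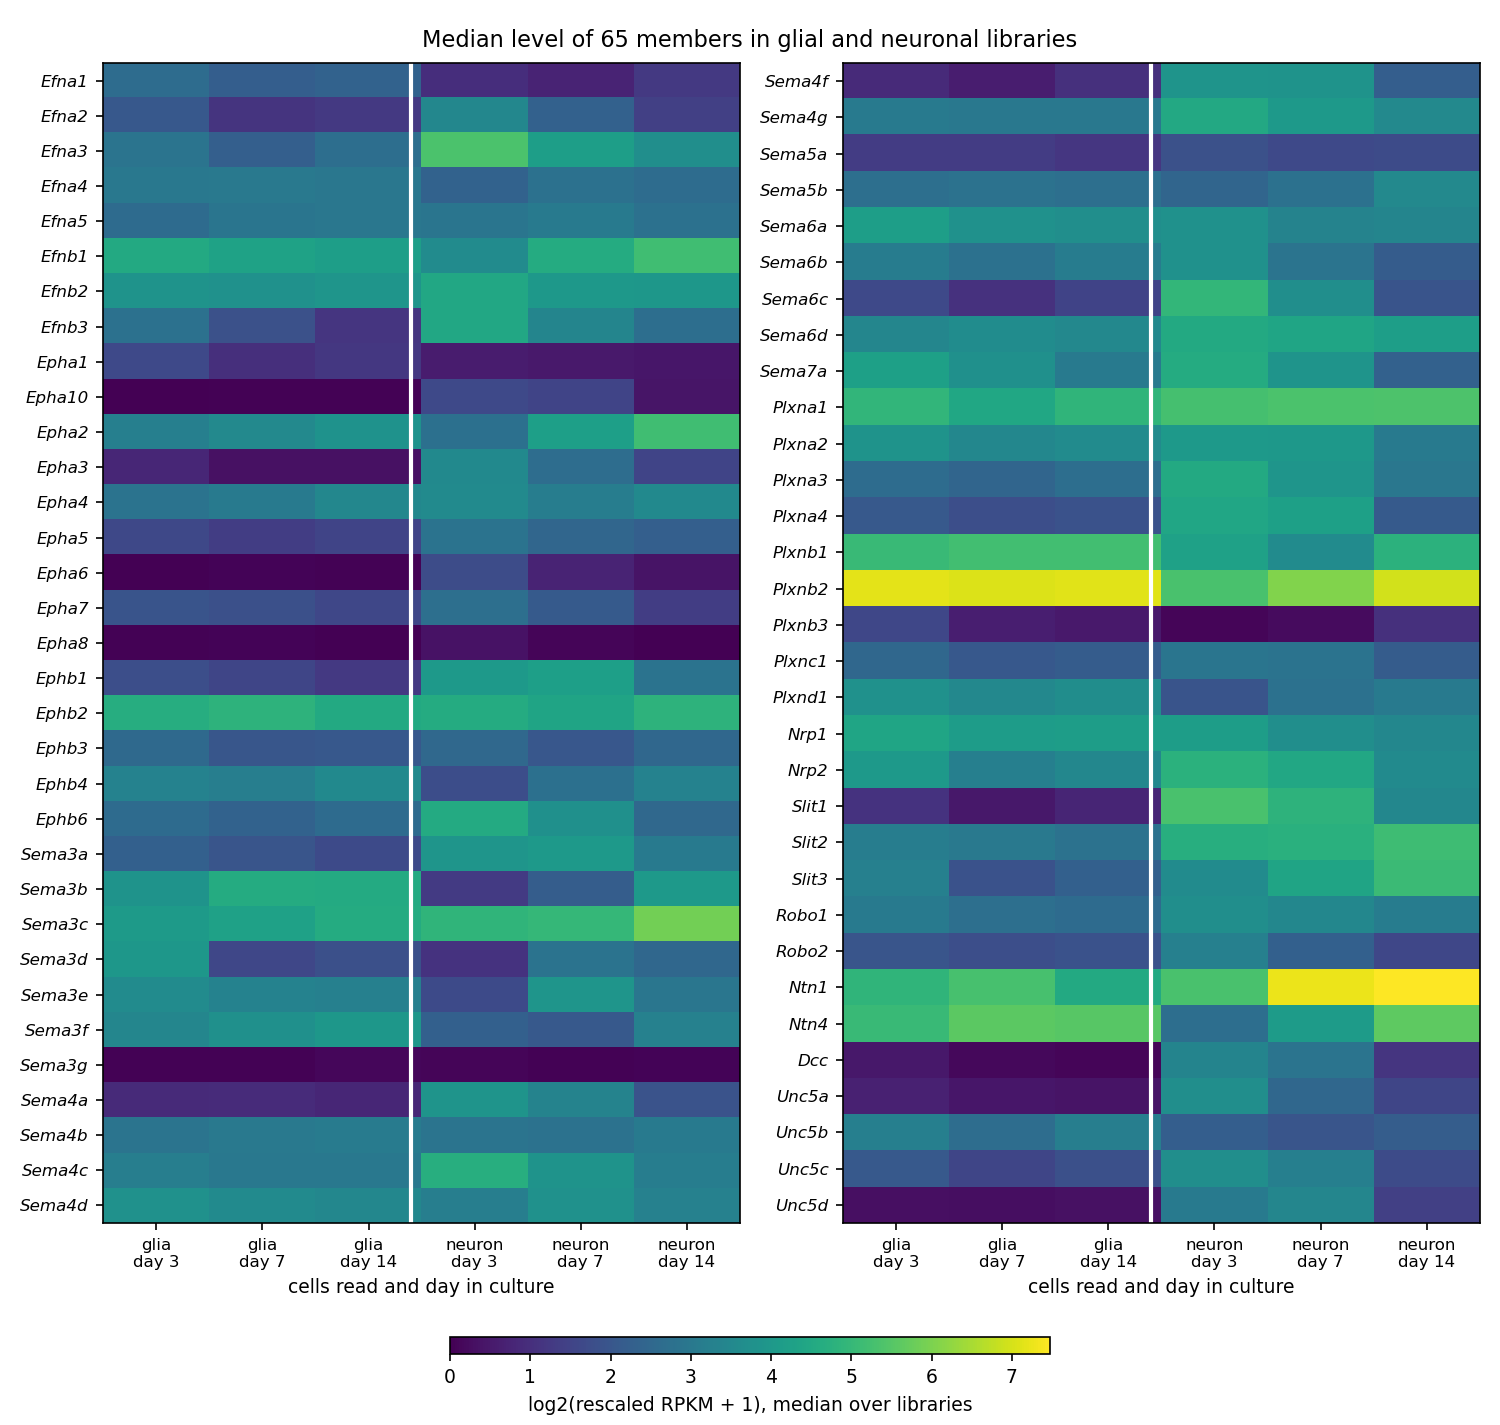
Median level of 65 members, as log2(rescaled RPKM + 1), in glial and neuronal libraries on days 3, 7 and 14, ordered by family. Slit1, Dcc, Unc5d and Sema4f are dark in every glial column, and Plxnb2 and Ntn4 are bright in glia and brighten in neurons from day 3 to day 14.

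Time in culture moved members in neurons. Of 62 tested, 33 (53.2%) were lower on day 14 than on day 3, against 33.5% of all genes. Higher were 15 (24.2%), against 29.7%. With values as deposited, where the median of all genes shifted by -0.44, 36 were lower and 11 higher. The p-values of this comparison count the libraries as independent, while neuronal libraries of 1 replicate number mostly deviated together within a day. They may therefore be too small. With a replicate block as a random term (correlation 0.509), chosen after seeing the data, each falling or rising member given next with a p kept its call. The median log2 difference was -0.52 for members and -0.04 for all genes. For 25 of the 62 members all day 14 libraries lay below all day 3 libraries, against 22.9% of all genes, and for 12 they lay above, against 20.8%. Epha6 and Epha10 reached the minimum on day 3 and not on day 14, and Plxnb3 on day 14 and not on day 3, and all of them are in these counts.

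Among the members that fell, Sema6c was at 26.2, 30.2 and 42.9 (lowest, median and highest of 6) on day 3 and at 2.62, 2.87 and 3.47 (of 7) on day 14 (log2 -2.98, SE 0.15, adjusted p = 9.75e-08, limma). Sema7a was at 20.1, 23.1 and 25.3 and then at 1.94, 3.98 and 5.84 (log2 -2.33, SE 0.19, adjusted p = 1.85e-06). Plxna4, the partner of neuropilins in the reading of Sema3a, was at 18.7, 20.4 and 24.6 and then at 2.26, 3.32 and 4.95 (log2 -2.29, SE 0.20, adjusted p = 2.63e-06). No day 14 value reached the lowest day 3 value in any of these. Dcc was at 6.97, 9.39 and 13.8 and then at 0.705, 1.23 and 2.19 (log2 -2.27, SE 0.25, adjusted p = 1.39e-05). Efna2, a lipid-anchored ephrin, was at 8.72, 9.96 and 11.8 and then at 0.689, 1.66 and 2.10 (log2 -2.22, SE 0.14, adjusted p = 3.29e-07). Unc5c was at 8.34, 11.9 and 22.5 and then at 1.38, 2.24 and 2.74 (log2 -2.16, SE 0.25, adjusted p = 1.68e-05). On day 14 the glial median was 0.0705 for Dcc and 1.81 for Sema6c, below the neuronal one, while that of Unc5c was 2.58, above the neuronal one.

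Among the members that rose, Ntn4 was at 5.05, 5.56 and 6.21 on day 3 and at 29.9, 48.6 and 67.2 on day 14 (log2 2.93, SE 0.21, adjusted p = 7.39e-07, limma). Epha2, an Eph receptor of dividing and epithelial cells, was at 0.289, 5.71 and 6.09 and then at 17.4, 35.2 and 58.5 (log2 2.88, SE 0.46, adjusted p = 0.00021). Sema3b was at 0.393, 1.39 and 2.47 and then at 7.00, 15.0 and 19.9 (log2 2.44, SE 0.26, adjusted p = 1.01e-05). The days did not overlap in these 3. Ephb4, a receptor of Efnb2 known from vessels, was at 0.659, 2.37 and 3.14 and then at 6.77, 8.98 and 11.7 (log2 1.71, SE 0.27, adjusted p = 0.000183). Ntn1 was at 17.4, 39.1 and 86.0 and then at 68.0, 177 and 266, which overlapped (log2 1.66, SE 0.42, adjusted p = 0.00459). Efnb1, a membrane-bound ephrin, was at 4.57, 11.3 and 11.9 and then at 19.1, 35.1 and 46.8 (log2 1.66, SE 0.29, adjusted p = 0.00037). Ntn1 was not called with values as deposited (adjusted p = 0.0575), and with replicate 2 as the only day 3 library of a pairing Ntn1 and Epha2 came to 2.54 and 4.54.

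The day 3 neurons of replicate 2 stood apart for Epha2, at 0.289 in mutant and 0.838 in wild-type neurons, both beside mutant glia, while the 4 of replicate 1 were at 5.55 to 6.09. The same libraries stood below the others for Ephb4, at 0.659 and 0.884 against 2.34 to 3.14, and for Efnb1, at 4.57 and 6.23 against 10.95 to 11.9.

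The 33 members that fell in neurons comprised Efna2, Efna3, Efnb2 and Efnb3 (log2 -1.77) of the ephrins, Epha3, Epha5 (-0.64), Epha6, Epha7, Epha10, Ephb1 and Ephb6 of their receptors, and Sema3a (-0.50), Sema4a, Sema4c, Sema4f, Sema4g, Sema6a (-0.37), Sema6b, Sema6c and Sema7a of the semaphorins. Of semaphorin receptors Plxna2 (-0.79), Plxna3, Plxna4, Plxnc1 (-0.66), Nrp1 (-0.68) and Nrp2 (-1.39) fell. Slit1 (-1.96), Robo1 (-0.55), Robo2 (-1.54), Dcc, Unc5a, Unc5c and Unc5d fell as well. The 15 that rose were Efnb1, Epha2, Ephb4, the secreted semaphorins Sema3b, Sema3d, Sema3e and Sema3f, the plexins Plxnb1 (0.60), Plxnb2, Plxnb3 and Plxnd1, the secreted guidance proteins Slit2 (0.47) and Slit3 (1.47), and Ntn1 and Ntn4. Epha4 (-0.17), Ephb2 (0.09), Efna5 (-0.09), Sema4d (0.05) and Sema5a (-0.16) were not called.

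**Figure D4:**
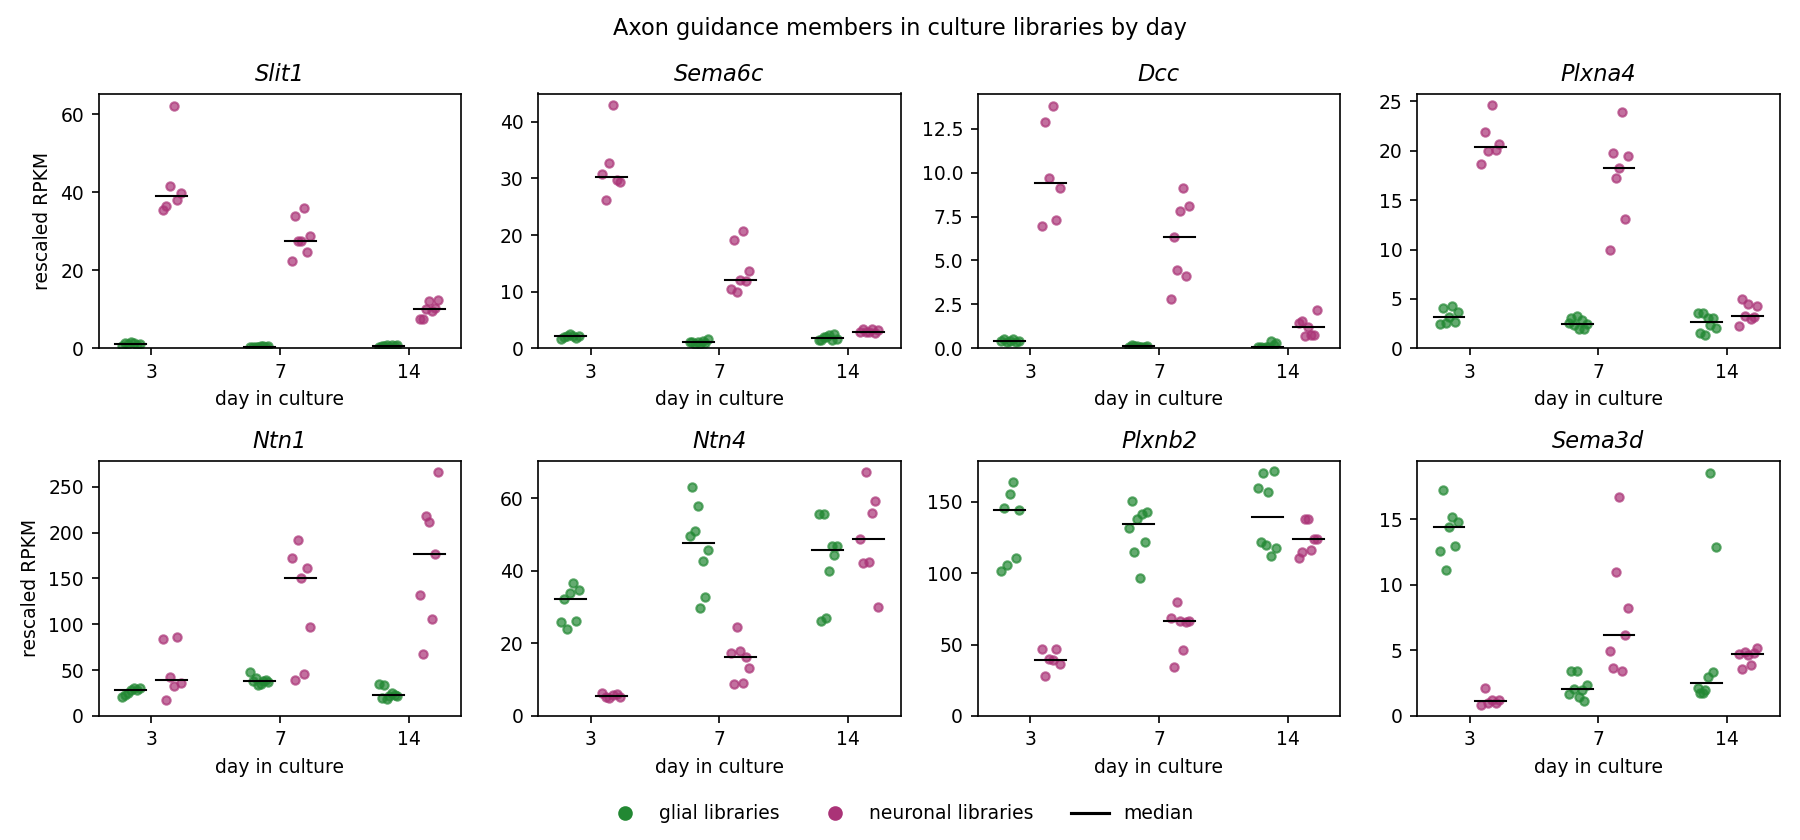
Level (rescaled RPKM) of 8 members against day in culture (evenly spaced), with glial libraries in green, neuronal libraries in purple and black lines for medians. Neuronal Slit1, Sema6c, Dcc and Plxna4 fall toward glial levels by day 14, while neuronal Ntn4 and Plxnb2 climb to them and neuronal Ntn1 climbs above them.

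In glia 57 members were tested between day 3 and day 14. Of these 6 (10.5%) were lower, against 7.83% of all genes, and 2 (3.51%) were higher, against 3.82%. These p-values count the libraries as independent, while glial libraries of 1 replicate number deviated together within a day, so they are too small. With a replicate block as a random term within each day (correlation 0.552), chosen after seeing the data, Efnb3 was the 1 member called, beside 117 genes, and the adjusted p of the other 7 was 0.148 to 0.436. Dcc, Epha3, Epha6, Epha8, Epha10, Sema3g, Unc5a and Unc5d were too low in glia to be tested. Sema3d was at 11.1, 14.4 and 17.2 (of 7) on day 3 and at 1.74, 2.52 and 18.6 (of 8) on day 14, where the 2 high values, 12.9 and 18.6, were both wild-type glia of replicate 2 (log2 -1.62, SE 0.31, adjusted p = 0.00405, limma). Efnb3 was at 4.39, 5.87 and 8.60 and then at 0.978, 1.25 and 2.81 (log2 -1.48, SE 0.16, adjusted p = 6.19e-05). Efna2 was at 2.30, 3.19 and 3.45 and then at 0.649, 1.38 and 1.82 (log2 -0.82, SE 0.13, adjusted p = 0.000989). The days overlapped for Sema3d and did not for Efnb3 and Efna2. Nrp2 was at 12.9, 15.7 and 17.6 and then at 6.62, 9.96 and 11.1 (log2 -0.65, SE 0.11, adjusted p = 0.00216). Robo1 was at 6.20, 7.24 and 8.36 and then at 1.73, 5.12 and 6.03 (log2 -0.64, SE 0.19, adjusted p = 0.0428). Sema3e, the ligand of Plxnd1, was at 9.58, 11.3 and 15.0 and then at 6.19, 8.56 and 10.1 (log2 -0.41, SE 0.10, adjusted p = 0.0202).

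Of the 2 called higher in glia without the block, Sema3b was at 12.0, 13.4 and 17.1 on day 3 and at 16.3, 22.9 and 32.2 on day 14 (log2 0.72, SE 0.15, adjusted p = 0.00739, limma). Epha4 was at 5.31, 6.27 and 7.24 and then at 8.39, 9.98 and 17.4 (log2 0.69, SE 0.14, adjusted p = 0.00594). The days overlapped for Sema3b and not for Epha4. With values as deposited, where the median of all genes shifted by -0.33, 21 members were lower and 0 higher, and 0.965% of all called genes were higher against 32.8% after rescaling (50.5% with quantile normalization). With voom on recovered reads 13 members were lower and 2 higher. Robo1 was lost without 10 different single libraries (adjusted p = 0.0516 to 0.0939), and Sema3e without the replicate 1 library of day 3 in 2 pairings (0.0516 for mutant glia beside wild-type neurons and 0.0508 for the all-wild-type one). Glial Sema7a (-1.0), Slit3 (-1.03), Slit2 (-0.48), Sema3a (-0.51), Sema6a (-0.52), Nrp1 (-0.25), Plxna4 (-0.33) and Slit1 (-0.34) were not called.

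The change from day 3 to day 14 was then compared between the cells. It was lower in neurons than in glia for 27 of 63 members (42.9%), against 26.8% of all genes. It was higher for 14 (22.2%), against 27%. Over the rows at the minimum in both cells 21 of 56 members were lower, against 25.3% of genes, and 14 higher, against 28%. With the replicate block as a random term 19 were lower and 10 higher, and each of the differences named with a p was called. Sema6c differed by -2.86 (SE 0.18, adjusted p = 4.92e-11, limma), Plxna4 by -1.96 (SE 0.27, adjusted p = 3.17e-06), Sema4a by -1.82 (SE 0.16, adjusted p = 6.81e-09), and Unc5c by -1.79 (SE 0.27, adjusted p = 8.46e-06). In the other direction Sema3d differed by 2.94 (SE 0.40, adjusted p = 2.03e-06), Epha2 by 2.53 (SE 0.47, adjusted p = 0.000112), Ntn4 by 2.52 (SE 0.29, adjusted p = 2.84e-07), Slit3 by 2.50 (SE 0.45, adjusted p = 7.84e-05), Efnb1 by 2.17 (SE 0.35, adjusted p = 1.76e-05) and Ntn1 by 1.81 (SE 0.43, adjusted p = 0.00116). Dcc (-1.95) and Unc5a (-1.78) were under the minimum in glia, where the added 1 flattens any change, so their values are given with no test.

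The lower set held in addition Slit1, Robo2, Efna2, Efna3, Efnb2, Epha4, Epha5, Epha7, Ephb6, Plxna2, Plxna3, Nrp2, Sema4c, Sema4f, Sema4g, Sema6b and Sema7a, and Unc5d, Epha3, Epha6 and Epha10, which were under the minimum in glia. The higher set held Ephb4, Plxnb2, Plxnb3, Plxnd1, Sema3b, Sema3e, Sema3f and Slit2. On day 3 all neuronal libraries lay above all glial libraries for 33 of 63 members, against 26.7% of all genes, and below them for 15, against 28.7%. On day 14 they lay above for 19, against 12.2%, and below for 3, against 9.32%. Dcc, Epha3, Epha6, Epha10, Unc5a and Unc5d, which had to differ, are in both the 33 and the 19, and Epha1 is in the 15. These counts are a description, and no share of genes was taken without such rows.

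Markers of cell types moved with day in the neuronal libraries. The 6 neuronal markers tested and 7 of 8 motor neuron markers were lower on day 14, and summed levels went from 3106 to 4156 on day 3 to 459.9 to 926.5 on day 14 for neurons and from 1127 to 1769 to 119 to 275 for motor neurons. The 3 pluripotent markers tested were lower as well, with sums of 0.754 to 36.8 and then 0.390 to 2.69. Of 7 astrocyte markers tested 5 were higher, with sums of 18.5 to 80.5 and then 253 to 420, all 4 oligodendrocyte precursor markers and 4 of 5 fibroblast markers were higher, and 2 of 3 markers of dividing cells were higher, with sums of 10.1 to 39.4 and then 40.0 to 123. Of 8 microglial markers 0 were called, with sums of 105 to 404 and then 80.2 to 749, and 2 of 3 Schwann cell markers were higher. Glial libraries held astrocyte sums of 462 to 1081 on these days, microglial sums of 842 to 2647 and fibroblast sums of 174 to 1415, and 6 of 7 oligodendrocyte, 4 of 8 astrocyte and 3 of 8 microglial markers were called lower in them by day 14 with libraries counted as independent. The part of these cells in the changes of members was not tested.

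Of the fixed lists of other pathway genes, 10 of 18 tested co-receptors and ligands were higher in neurons than in glia and 4 lower. Of 38 cytoplasmic partners 25 were higher and 10 lower (median log2 0.73). Of all genes 39.8% were higher and 38.6% lower. From day 3 to day 14 in neurons 10 of the 18 fell and 3 rose, and 23 of the 38 fell and 7 rose (median -0.56), while 33.5% of all genes fell and 29.7% rose. In glia 7 of the 18 and 7 of the 38 were lower, against 7.83% of all genes, and 0 and 1 higher, against 3.82%, with libraries counted as independent.

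The genotype of the cells read and that of their partners were then compared. In glia 0 of 57 members were called for the glia's own genotype, against 0.112% of all genes (16 of 14284, limma), with 0 members and 641 genes at an unadjusted p under 0.05. For the genotype of the neurons beside them 0 of 57 were called, as were 0% of all genes, with 0 members and 42 genes at an unadjusted p under 0.05. Neither count of members changed with voom on recovered reads or with a replicate block, under which 282 genes were called for the glia's own genotype. The members' log2 differences by own genotype ran from -0.40 (Sema3d) to 0.22 (Slit3) and by that of the neurons from -0.17 (Efnb1) to 0.19 (Sema6d), with a median SE of 0.13.

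In neurons 1 of 62 members was higher with the neurons' own mutant genotype, against 2.49% of all genes. Epha6, an ephrin-A receptor, was at 1.02, 1.30 and 1.66 in wild-type neurons and 2.96, 3.00 and 4.11 in mutant neurons on day 3. On day 7 the 4 wild-type libraries were at 0.533 to 0.803 and the 3 mutant ones at 0.689, 2.08 and 2.49, and on day 14 the 4 were at 0.106 to 0.444 and the 3 at 0.319, 0.419 and 0.643. The genotypes did not overlap on day 3 and overlapped on days 7 and 14, and Epha6 rested on 4 to 370 reads a library. The log2 difference over days was 0.67 (SE 0.13, adjusted p = 0.0208, limma). With a replicate block 11 members were called, 6 higher and 5 lower, Epha6 among them. The 2.49% of all genes belongs to the fit without the block. No share of all genes with the block is given here, so the 11 are a description. Neuronal libraries of 1 replicate number were correlated above 0.1 in 6 of 7 pairs (median 0.560), so neither count is preferred here. Over days 7 and 14 alone Sema3d was the 1 member called, as lower. The call of Epha6 was lost with values as deposited (adjusted p = 0.305), over days 7 and 14 alone (0.137) and without replicate 2 of wild-type neurons beside mutant glia on day 7 (0.0503).

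Epha5 (log2 0.49, adjusted p = 0.0532) and Efnb3 (0.41, adjusted p = 0.0675) came next and were not called. Of the 434 genes called in this comparison 242 lay on chromosome 11, where the median log2 difference of 964 genes was 0.37 against -0.04 to 0.00 on the other chromosomes. Of the members Efnb3, Ntn1 (-0.57) and Slit3 (-0.21) lie on chromosome 11, and Epha6 lies on chromosome 16. By the genotype of the glia beside the neurons 0 of 62 members were called, as were 0% of all genes, with 0 members and 188 genes at an unadjusted p under 0.05, and the log2 differences ran from -0.20 (Epha3) to 0.25 (Slit3).

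**Figure D5:**
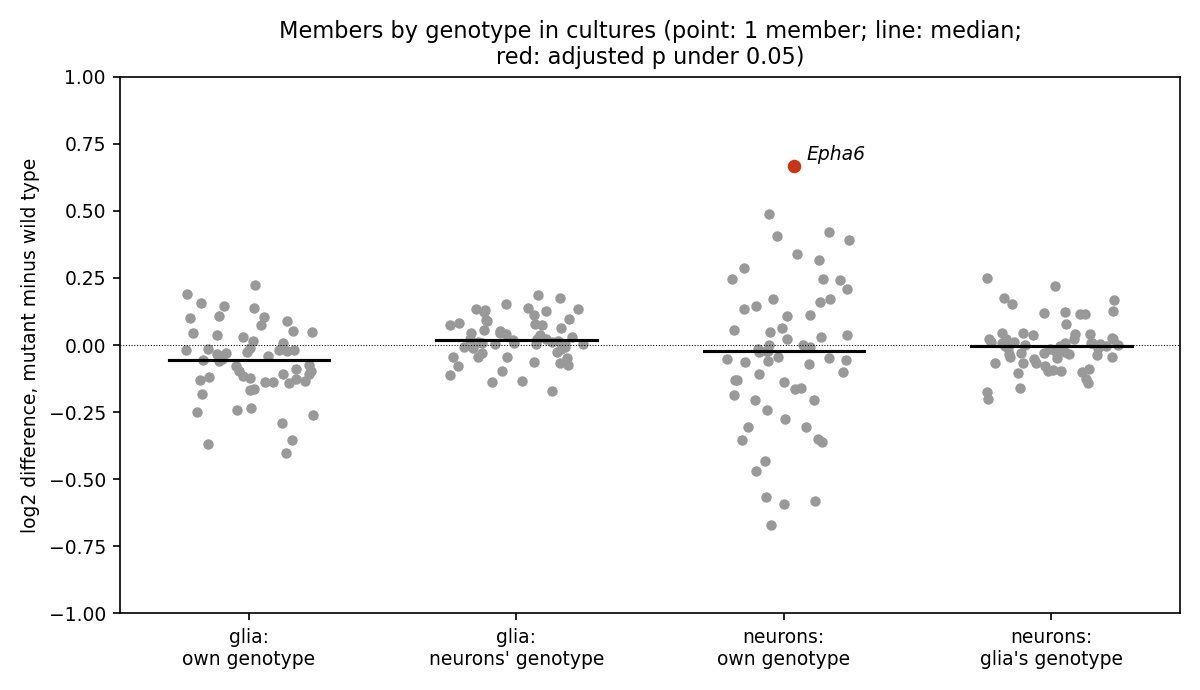
Log2 difference, mutant minus wild type, of each member (1 point each) in glia and neurons by their own genotype and by that of their partner, with lines for the median. Points lie between -0.67 and 0.67 in neurons by own genotype, where Epha6 is marked as called, and between -0.40 and 0.25 in the other 3 comparisons.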

How the data were processed

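RNA-seq tables of 16 spinal cord and 43 culture libraries were used. Culture values are RPKM made by the authors, and the spinal cord values are a score on the scale of RPKM that the authors deposited beside each gene's length. Bowtie and mm9 are named in the submitters' processing notes, without a role. The counting and what was subtracted in spinal cord are not given in the sources used here. Libraries were made with 1 of 2 Illumina kits, which for each is not stated in the labels. Columns of no mapped sample numbered 0.

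Values were rescaled by the median of ratios and tested as log2(value + 1) in limma 3.58.1 (R 4.3.3) with a trended spread, over rows at 1 or more in at least 2 libraries, with Benjamini-Hochberg adjustment over all of them and calls at an adjusted p under 0.05. Spinal cord fits held age, genotype and sex, and culture fits held pairing and day. The scripts were tested on simulated data. Whole reads were recovered for 100% of 22784 culture rows above 0 (tolerance 0.02 reads), and voom on such reads was added after seeing the data, as were a random replicate term for the day comparisons (duplicateCorrelation), rows at the minimum in both kinds of cells, and 4 and 8 weeks singly. Other alternatives were the values as deposited, quantile normalization, 0.1 added in place of 1, no filter, rows with negative values left out, no sex term, 17-week males, days 7 and 14, day 3 from replicate 2, a replicate block and leaving out each library. Libraries of glia with 1 replicate number deviated together (15 of 15 pairs correlated above 0.1, median 0.708), which pairs them. Those of neurons did so in most pairs (6 of 7, median 0.560, lowest 0.0735). Between days the medians were 0.0208 in glia and 0.105 in neurons.

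The members and gene lists were chosen with earlier results of these data known. Every called member was named in each comparison, the 6 with the largest fold in each direction with their values, and 24 members were described whatever their values. Marker lists covered neurons, motor neurons, astrocytes, oligodendrocytes and their precursors, microglia, endothelium, fibroblasts, Schwann, dividing, pluripotent and red blood cells. Depth per library is given with the levels, and low members rest on few reads.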

Additional observations from a re-analysis of the deposited data

Results flagged for a closer look

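The genotype difference of 7 members in spinal cord differed between 17 weeks and the mean of 4 and 8 weeks by the test of that difference. On the log2 scale it was larger at 17 weeks by 0.984 for Plxnb2, 0.965 for Plxnd1, 0.94 for Sema3d, 0.907 for Nrp1 and 0.592 for Plxnb1. It changed by -0.687 for Epha10 and -0.6 for Sema4g. Plxnd1 reached the minimum for testing through mutant libraries alone, so its value is a description. The calls of Sema3d, Nrp1, Plxnb1, Epha10 and Sema4g were lost under some settings.

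For 35 members that reached the minimum for testing in both cells the change from day 3 to day 14 differed between neurons and glia by the same kind of test. That test counts the libraries as independent. With a replicate block as a random term fewer members were called, and which of the amounts below kept the call is not marked. The change was more positive in neurons, on the log2 scale, by the following amounts. Among semaphorins these were 2.94 for Sema3d, 1.71 for Sema3b, 1.7 for Sema3e and 0.667 for Sema3f, and among plexins 1.55 for Plxnb2, 1.48 for Plxnb3 and 1.12 for Plxnd1. Netrins and Slits gave 2.52 for Ntn4, 1.81 for Ntn1, 2.5 for Slit3 and 0.948 for Slit2. The Eph system gave 2.53 for Epha2, 1.54 for Ephb4 and 2.17 for Efnb1.

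It was more negative in neurons for the other members. Semaphorins gave -2.86 for Sema6c, -1.82 for Sema4a, -1.75 for Sema4f, -1.63 for Sema6b, -1.35 for Sema4c, -1.33 for Sema7a and -0.847 for Sema4g. Their receptors gave -1.96 for Plxna4, -1.65 for Plxna3, -0.594 for Plxna2 and -0.738 for Nrp2. Netrin and Slit signalling gave -1.79 for Unc5c, -1.62 for Slit1 and -1.51 for Robo2. Eph receptors gave -1.71 for Ephb6, -0.893 for Epha7, -0.857 for Epha4 and -0.577 for Epha5. Ephrins gave -1.4 for Efna2, -1.4 for Efna3 and -0.558 for Efnb2.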

How the results depend on the processing

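Of 69 named results of single members 43 passed under every setting tried and 0 changed sign, and 129 of 1667 combinations of member and setting lost the call. With values as deposited the counts of members called were 1 at 12 weeks, 3 at 17 weeks, 2 for the genotype difference at 17 weeks against 4 and 8 weeks, 21 for glia between days and 0 for the neurons' own genotype. Quantile normalization gave 2 at 12 weeks and 2 for wild-type ageing, and no filter gave 2 at 12 weeks. The 17-week males alone gave 4 at 17 weeks and 3 for the genotype difference. With voom on recovered reads, chosen after seeing the data, glia between days had 15. A replicate block as a random term, also chosen after seeing the data, gave 1 for glia between days, 43 for neurons between days and 29 for their difference. The cause of these changes was not tested. Leaving out single libraries gave 1 to 3 at 12 weeks, 3 to 7 at 17 weeks, 4 to 8 for the genotype difference, 2 to 3 for wild-type ageing and 0 to 3 for the neurons' own genotype. The lowest counts came without the 12-week mutant female or either 12-week wild type (1), the 17-week mutant female (3, and 4 for the genotype difference, as without the 4-week wild-type male or the 8-week mutant female), either 4-week wild type (2) and replicate 2 of wild-type neurons beside mutant glia on day 7 (0). Where 1 library was left in a group it was assumed to vary like the others.

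With a replicate block the neurons' own genotype had 11 members called, 6 higher and 5 lower, given here with no share of all genes. Glia had 0 by either genotype with the block, as had neurons by the genotype of the glia. Neurons against glia had 54 with the block. In spinal cord the replicate numbers stand for the sexes, which the model already held. The share of all called genes that were higher moved by scaling from 75% to 90.5% as deposited and 63.4% with quantile normalization at 17 weeks, from 83.2% to 93.8% and 72.7% for the genotype difference, from 19.9% to 6.85% as deposited for wild-type ageing, from 47% to 24.7% for neurons between days and from 85% to 66.7% for the neurons' own genotype. Depth limits members with few reads, such as Epha6, and spinal cord groups held 2 mice of different sex.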
